A study of Mus musculus with 3 samples.

Results

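The genes of redox balance and antioxidant defence were examined in RNAseq libraries of the mouse incisor enamel organ, the epithelium that contains the enamel-forming ameloblasts. The 44 genes were taken by symbol from the superoxide, peroxide, glutathione and thioredoxin systems and from the targets of NRF2. All 44 were among the 20937 genes of the deposited count table, and all 44 passed the filter on low counts, which left 18702 genes for testing. The libraries came from mice aged 28 days and numbered 3, with 1 per genotype. Stim1 cKO was Stim1 fl/fl Cre+ and is labelled as a complete deletion of the calcium sensor gene Stim1. Stim1 Het was Stim1 fl/wt Cre+, and the Cre negative library was Stim1 fl/fl Cre-, so that floxed alleles were present in all 3. The Cre transgene, AmelX-iCre, is driven by the amelogenin promoter and acts in ameloblasts from the secretory stage onwards, whereas RNA was taken from the whole dissected enamel organ, with its other cells. No genotype had a replicate, and how much mice of the same genotype vary is therefore unknown.

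Superoxide, which forms at the respiratory chain and at NADPH oxidases, is turned into hydrogen peroxide by superoxide dismutases. Peroxide is then removed by catalase, by glutathione peroxidases, which spend glutathione, and by peroxiredoxins, which are recharged by thioredoxin. Both carriers are regenerated with NADPH. The transcription factor NRF2 (Nfe2l2), held down by KEAP1 in resting cells, induces many of these genes when electrophiles or oxidants arrive, and glutathione S-transferases attach glutathione to such electrophiles. In the tissue studied, ameloblasts fold and secrete large amounts of enamel protein, and the folding of secreted proteins in the endoplasmic reticulum itself yields peroxide.

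Levels are given as CPM, the counts divided by a library's size after scaling between libraries by edgeR's TMM method. The libraries held 20216507 to 28265960 counts, and the members had 180 to 13411 counts in a library. The standard error from counting alone was thus at most 0.138 for a member's log2 ratio of Stim1 cKO to a control. Stim1 itself had 72.8 CPM in Stim1 cKO, 129 CPM in Stim1 Het and 186 CPM in the Cre negative library. The Stim1 cKO library stood apart in its content of other tissues. All 7 listed photoreceptor markers were more than 2-fold above both controls, with a summed level of 1078 CPM in Stim1 cKO against 2.08 CPM in Stim1 Het and 1.48 CPM in the Cre negative library, and so were all 5 listed lens markers. Of 14 markers of nasal and olfactory mucosa, chosen after values were seen, 12 were more than 2-fold above both controls, and they summed to 12340 CPM in Stim1 cKO, 1535 CPM in Stim1 Het and 448 CPM in the Cre negative library. Xist, the RNA of the inactive X chromosome, had 10897 counts in Stim1 cKO and 36 and 1 in Stim1 Het and Cre negative. The 4 listed Y-linked genes were read in all 3 libraries but were below both controls in Stim1 cKO. They summed to 97.7 CPM in Stim1 cKO, 176.9 CPM in Stim1 Het and 179.1 CPM in the Cre negative library. Xist and these genes were chosen after values were seen. The paper's methods state that only male mice were taken for analysis. Summed markers of enamel epithelium came to 7175 CPM in Stim1 cKO, 33190 CPM in Stim1 Het and 24850 CPM in the Cre negative library, although 7 of the 12 were above both controls in Stim1 cKO and 4 below. Those of skeletal muscle came to 6502, 25820 and 29440 CPM in the same order. Of 12 neutrophil markers 9 were more than 2-fold below both controls, while their summed level of 1512, 605 and 358 CPM followed Ltf, which glands also secrete and which had 1441, 358 and 112 CPM. The part of these differences in the results below was not tested, and in such bulk RNA fewer cells of a type and less RNA per cell cannot be told apart.

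The first comparison asked which redox genes differed between Stim1 cKO and the grouped Stim1 Het and Cre negative libraries. The members furthest from both controls were of different roles on the high and the low side. Gstm1, Gsta4, Gclc and Nqo1, which make and use glutathione or detoxify quinones, were more than 2-fold higher in Stim1 cKO than in either control. Gpx7, Gpx8, Prdx4 and Nnt, which are peroxidases of the endoplasmic reticulum and a mitochondrial source of NADPH, were more than 2-fold lower than in either control. These 4 of 44 members in each direction make 9.09%, where 19.1% of all tested genes were more than 2-fold higher and 8.23% more than 2-fold lower. At the thresholds used, more than 2-fold with an adjusted p-value under 0.01, edgeR's quasi-likelihood test called 0 members higher and 0 lower, against 0.0749% and 0.0% of all genes tested. At an unadjusted p-value under 0.05 it marked 6 members higher and 9 lower, 13.6% and 20.5% of the members beside 18.5% and 13.4% of all genes. DESeq2, at the same thresholds, called 3 members higher (Gstm1, Gsta4 and Gclc) and 4 lower (Gpx7, Gpx8, Prdx4 and Nnt), beside 5.92% and 4.71% of all genes. Both tests take their spread from Stim1 Het and Cre negative alone, which are not replicates but differ in genotype.

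**Figure D1:**
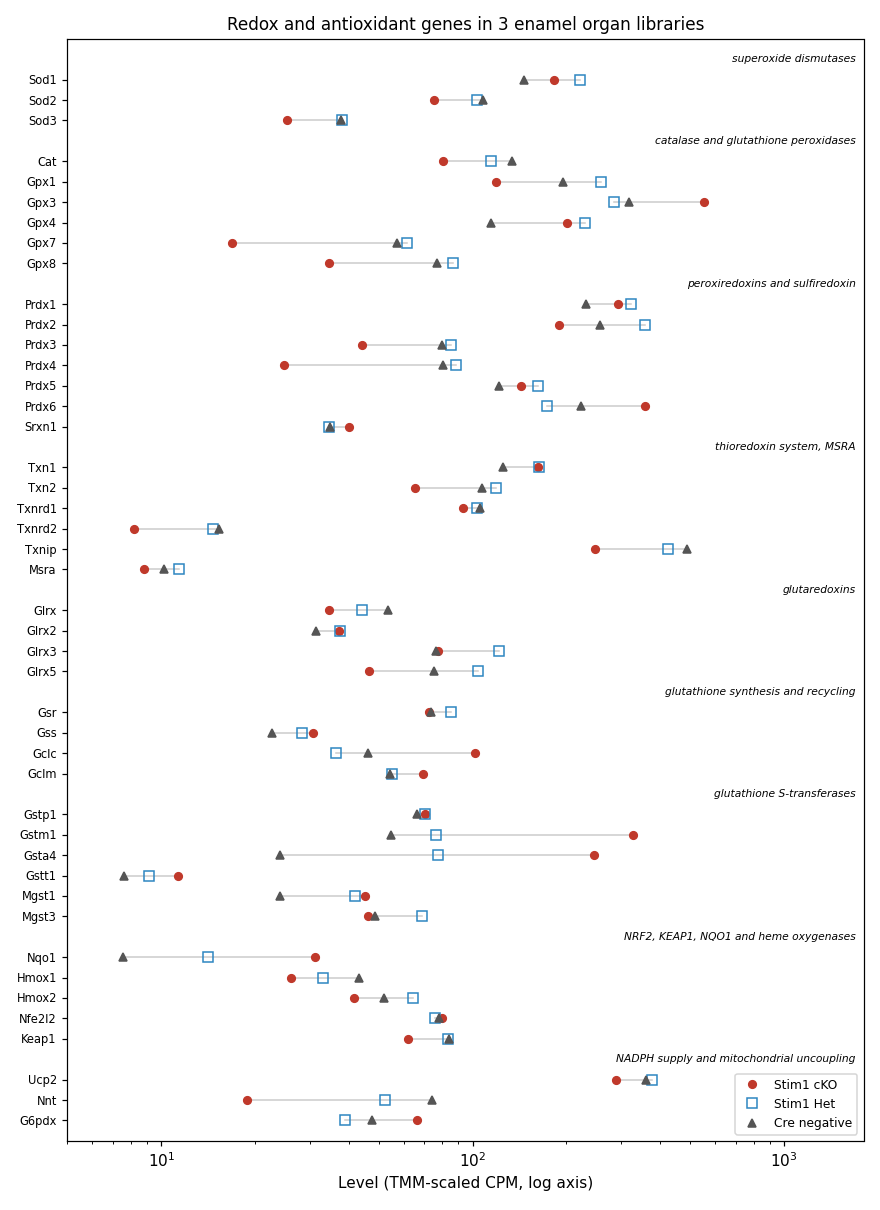
Level of each of the 44 genes (horizontal log axis, TMM-scaled CPM) in the Stim1 cKO (filled circles), Stim1 Het (open squares) and Cre negative (filled triangles) libraries, grouped by role, with 1 library per genotype and no error bars. The widest gaps between Stim1 cKO and both controls are those of Gstm1 and Gsta4 on the high side and Gpx7, Prdx4 and Nnt on the low side.

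Most members lay closer to the controls. Stim1 cKO was above both controls in 13 members, below both in 23 and between them in 8, where 43.6% of all genes were above and 42.1% below. The median log2 fold change over the 44 members was -0.23, against -0.01 over all genes tested. Scaling by library size alone moved the median of all genes to 0.25 and that of the members to 0.02, and left 20 members above both controls and 19 below, so that the sign of small changes depends on the scaling while the distance of the members' median from that of all genes, -0.22, became -0.23. That distance was -0.11 when genes had to average 50 counts. Summed over the members, levels came to 4795 CPM in Stim1 cKO, 5054 CPM in Stim1 Het and 4475 CPM in the Cre negative library. The sum in Stim1 cKO thus lay between those of the controls.

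**Figure D2:**
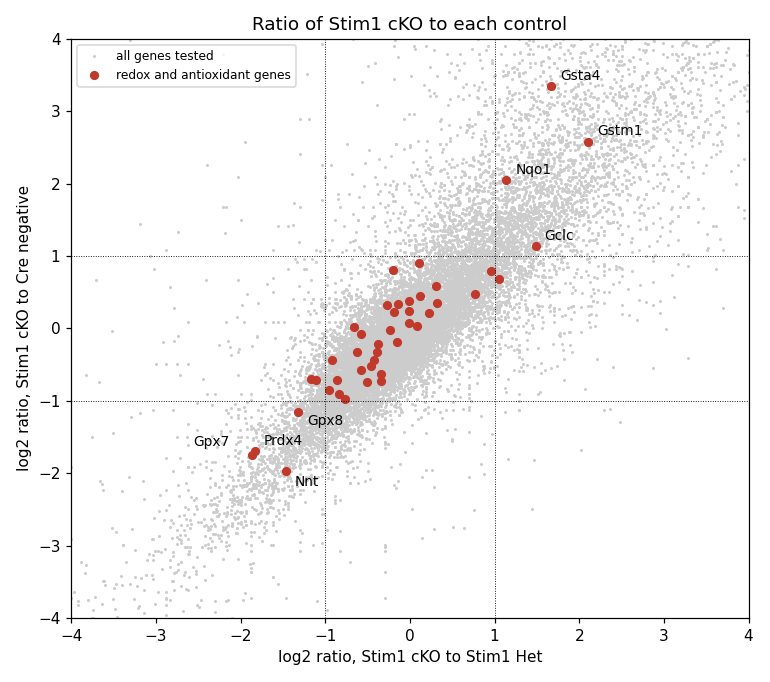
Log2 ratio of Stim1 cKO to Cre negative against log2 ratio of Stim1 cKO to Stim1 Het, for all genes tested (grey) and the 44 members (coloured), drawn over 4 log2 units to each side, which leaves 1100 of 18702 genes outside the plotted range. The 4 members beyond the 2-fold lines on both axes in each direction are named.

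The superoxide dismutases, which act at the first step, were at similar or lower levels in Stim1 cKO. Sod1, the cytosolic enzyme, had 183 CPM in Stim1 cKO, 222 CPM in Stim1 Het and 147 CPM in the Cre negative library, so Stim1 cKO lay between the controls. Sod2, the mitochondrial enzyme, had 75.2, 103 and 108 CPM in the same order, and the extracellular Sod3 had 25.4, 38.0 and 37.9 CPM. Both were below the controls, which were close to each other, with log2 fold changes of -0.49 ± 0.26 and -0.58 ± 0.24 (SE) and adjusted p-values of 0.253 and 0.170 in edgeR.

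Of catalase and the glutathione peroxidases, 4 of 6 were below both controls in Stim1 cKO, 1 was above and 1 between. Over all genes, 42.1% were below and 43.6% above. The lower members included the pair that works in the endoplasmic reticulum. Gpx7 (chr4:108400390-108406961 on GRCm38, as for all gene positions here), which feeds peroxide into disulfide formation during protein folding, had 16.9 CPM in Stim1 cKO, 61.7 CPM in Stim1 Het and 57.0 CPM in the Cre negative library. The controls were thus nearly level and 3.65-fold and 3.38-fold above Stim1 cKO, and the log2 fold change was -1.81 ± 0.26 (SE) with an adjusted p of 0.0253 in edgeR. Gpx8 (chr13:113042753-113046410), a membrane-bound enzyme of the same compartment, had 34.6 CPM in Stim1 cKO, 86.5 CPM in Stim1 Het and 76.7 CPM in the Cre negative library. Again the controls lay together, 2.50-fold and 2.22-fold above Stim1 cKO, with a log2 fold change of -1.24 ± 0.27 (SE) and an adjusted p of 0.0514 in edgeR. Scaled by library size only, the distance of Gpx8 from the nearer control was under 2-fold.

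Gpx1, the abundant intracellular glutathione peroxidase, had 119 CPM in Stim1 cKO, 258 CPM in Stim1 Het and 195 CPM in the Cre negative library. Stim1 cKO was lowest, but the controls differed from each other by 1.32-fold, and the log2 fold change was -0.93 ± 0.33 (SE, adjusted p = 0.133 in edgeR). Cat, the peroxisomal catalase, had 80.3, 115 and 134 CPM in the same order, and its log2 fold change of -0.63 had an adjusted p of 0.193. Gpx3, the glutathione peroxidase secreted into extracellular fluid, had 554 CPM in Stim1 cKO, 285 CPM in Stim1 Het and 319 CPM in the Cre negative library, with Stim1 cKO highest (log2 fold change 0.88 ± 0.31, SE, adjusted p = 0.128 in edgeR), and it was more than 2-fold above both controls only with library size scaling. Gpx4, which reduces lipid peroxides in membranes, differed more between the controls than between Stim1 cKO and either of them, with 201 CPM in Stim1 cKO, 230 CPM in Stim1 Het and 114 CPM in the Cre negative library.

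Among the peroxiredoxins, the member of the endoplasmic reticulum was furthest from the controls. Prdx4 (chrX:155323918-155340754), which removes peroxide in that compartment, had 24.8 CPM in Stim1 cKO, 88.3 CPM in Stim1 Het and 80.6 CPM in the Cre negative library. The controls were 3.56-fold and 3.25-fold above Stim1 cKO and close to each other, and the log2 fold change was -1.77 ± 0.27 (SE) with an adjusted p of 0.0281 in edgeR. Prdx3, the mitochondrial peroxiredoxin, had 44.0, 85.2 and 79.8 CPM in Stim1 cKO, Stim1 Het and Cre negative, a log2 fold change of -0.91 (adjusted p = 0.0861 in edgeR). The cytosolic Prdx2 had 189, 358 and 256 CPM in the same order, with Stim1 cKO lowest and the controls well apart. Prdx1 and Prdx5 lay between the controls, at 293 and 143 CPM in Stim1 cKO.

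Prdx6, which uses glutathione in place of thioredoxin and also acts on phospholipids, was the highest of the peroxiredoxins in Stim1 cKO relative to the controls, with 359 CPM in Stim1 cKO, 173 CPM in Stim1 Het and 223 CPM in the Cre negative library. Its log2 fold change was 0.86 ± 0.31 (SE, adjusted p = 0.138 in edgeR). Srxn1, the sulfiredoxin that repairs overoxidized peroxiredoxins, had 40.2, 34.5 and 34.8 CPM in the same order, a log2 fold change of 0.22.

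Placed together after their values were seen, the 3 peroxidases of the endoplasmic reticulum (Gpx7, Gpx8 and Prdx4) summed to 76.3 CPM in Stim1 cKO, 236.5 CPM in Stim1 Het and 214.4 CPM in the Cre negative library. In the same libraries the summed enamel epithelium markers and the summed skeletal muscle markers were also lowest in Stim1 cKO. Even so, 7 of the 12 enamel epithelium markers were above both controls there and 4 below. Of 12 markers of fibroblasts, bone and odontoblasts, 10 were below both controls. They summed to 38760, 53790 and 81920 CPM in Stim1 cKO, Stim1 Het and Cre negative. The part of all these cell types in the lower peroxidase levels was not tested.

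In the thioredoxin system, 5 of 6 genes were below both controls in Stim1 cKO, although scaling by library size alone reduced this to 3. With the main scaling 42.1% of all genes were below both controls. Txn1, the cytosolic thioredoxin, had 162 CPM in Stim1 cKO, 163 CPM in Stim1 Het and 125 CPM in the Cre negative library, so Stim1 cKO was within the range of the controls. The mitochondrial Txn2 had 65.4, 119 and 107 CPM in the same order and a log2 fold change of -0.79 ± 0.27 (SE, adjusted p = 0.123 in edgeR). Thioredoxin reductases recharge these proteins. Txnrd1, the cytosolic enzyme, had 92.9, 103 and 106 CPM in Stim1 cKO, Stim1 Het and Cre negative, a log2 fold change of -0.17 that became 0.09 under library size scaling. Txnrd2, the mitochondrial enzyme, had 8.18, 14.7 and 15.3 CPM, a log2 fold change of -0.88 (adjusted p = 0.173 in edgeR). Txnip, which binds and inhibits thioredoxin, had 248 CPM in Stim1 cKO, 423 CPM in Stim1 Het and 489 CPM in the Cre negative library, with a log2 fold change of -0.88 ± 0.33 (SE, adjusted p = 0.146 in edgeR). Msra, which repairs oxidized methionine, was low in all libraries, at 8.80, 11.4 and 10.2 CPM.

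Of the 4 glutaredoxins, which use glutathione to reduce protein disulfides or to carry iron-sulfur clusters, 2 were below both controls and 2 were between them. Below both controls were 42.1% of all genes. Glrx5, a mitochondrial protein of iron-sulfur cluster assembly, had 46.4 CPM in Stim1 cKO, 104 CPM in Stim1 Het and 75.2 CPM in the Cre negative library, with a log2 fold change of -0.95 ± 0.32 (SE, adjusted p = 0.118 in edgeR). Glrx5 also serves heme synthesis in red cell precursors, and 10 of 11 erythroid markers were below both controls in Stim1 cKO, with summed levels of 1060, 2354 and 1756 CPM in Stim1 cKO, Stim1 Het and Cre negative. Their part in the level of Glrx5 was not tested. The cytosolic Glrx had 34.6, 44.0 and 53.4 CPM in the same order, and Glrx2 and Glrx3 had log2 fold changes of 0.11 and -0.36.

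In the synthesis and recycling of glutathione, 3 of 4 genes were above both controls in Stim1 cKO, and 1 of them by more than 2-fold. Over all genes, 43.6% were above both controls and 19.1% by more than 2-fold. Gclc (chr9:77754535-77794485), the catalytic subunit of the rate-limiting glutamate-cysteine ligase, had 101.5 CPM in Stim1 cKO, 36.3 CPM in Stim1 Het and 46.0 CPM in the Cre negative library. Stim1 cKO was 2.80-fold and 2.20-fold above the controls, which differed from each other by 1.27-fold, and the log2 fold change was 1.30 ± 0.26 (SE) with an adjusted p of 0.0463 in edgeR. Gclm, the modifier subunit of the same enzyme, had 69.2 CPM in Stim1 cKO, 55.3 CPM in Stim1 Het and 54.4 CPM in the Cre negative library, a log2 fold change of 0.33 ± 0.24 (SE, adjusted p = 0.372 in edgeR). Gss, the synthase of the second step, had 30.8, 28.4 and 22.6 CPM, with a log2 fold change of 0.27. Gsr, which reduces oxidized glutathione, had 72.5, 85.3 and 73.8 CPM, and its log2 fold change of -0.13 became 0.12 under library size scaling.

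The glutathione S-transferases held the pair of genes with the largest fold changes of all members. Gstm1 (chr3:108012255-108017973), a cytosolic mu-class transferase, had 328 CPM in Stim1 cKO, 76.4 CPM in Stim1 Het and 54.8 CPM in the Cre negative library. Stim1 cKO was 4.29-fold and 5.98-fold above the controls, and the log2 fold change was 2.32 ± 0.31 (SE) with an adjusted p of 0.0232 in edgeR. Gsta4 (chr9:78182774-78209349), which conjugates the lipid peroxidation product 4-hydroxynonenal, had 245 CPM in Stim1 cKO, 77.2 CPM in Stim1 Het and 24.1 CPM in the Cre negative library. Here the controls were themselves 3.21-fold apart, so that Stim1 cKO was 3.17-fold above Stim1 Het and 10.2-fold above Cre negative, and the log2 fold change of 2.27 ± 0.65 (SE) had an adjusted p of 0.0876 in edgeR.

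The other transferases differed less. Gstp1, the pi-class enzyme, had 70.2, 70.6 and 66.4 CPM in Stim1 cKO, Stim1 Het and Cre negative, and lay between the controls. Gstt1 had 11.3, 9.14 and 7.58 CPM, and the membrane-bound Mgst1 had 45.2, 41.8 and 24.1 CPM, both in the order of Gstm1 and Gsta4 but with log2 fold changes of 0.44 and 0.45. Mgst3 had 46.0, 68.9 and 48.5 CPM. Transferases of one class have closely related sequences, and the counts of Gstm1 and Gsta4 are uncertain where reads could be shared with their relatives. Summed over the 6 transferases, levels came to 745 CPM in Stim1 cKO, 344 CPM in Stim1 Het and 225 CPM in the Cre negative library.

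The transcript of NRF2 varied little between the libraries. Nfe2l2 had 79.9 CPM in Stim1 cKO, 75.6 CPM in Stim1 Het and 78.0 CPM in the Cre negative library, and Keap1, its inhibitor, had 62.1, 83.1 and 84.2 CPM. The log2 fold changes were 0.06 ± 0.25 and -0.43 ± 0.25 (SE), with adjusted p-values of 0.887 and 0.291 in edgeR. Transcript levels do not report the activity of NRF2, which is set largely by the stability of the protein.

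The known targets of NRF2 lay on both sides of the controls. Nqo1 (chr8:107388225-107403206), a quinone reductase and a widely used readout of NRF2, had 31.1 CPM in Stim1 cKO, 14.2 CPM in Stim1 Het and 7.54 CPM in the Cre negative library. The controls differed by 1.88-fold, and Stim1 cKO was 2.20-fold above Stim1 Het and 4.13-fold above Cre negative, with a log2 fold change of 1.52 ± 0.44 (SE) and an adjusted p of 0.0883 in edgeR. Hmox1, the inducible heme oxygenase, had 26.0 CPM in Stim1 cKO, 33.0 CPM in Stim1 Het and 43.2 CPM in the Cre negative library, the reverse order, with a log2 fold change of -0.55 ± 0.28 (SE, adjusted p = 0.241 in edgeR). Hmox1 is also strongly expressed by macrophages, of whose 12 markers 10 were below both controls in Stim1 cKO, with summed levels of 200, 352 and 409 CPM in Stim1 cKO, Stim1 Het and Cre negative. Their part in the level of Hmox1 was not tested. Hmox2, the constitutive heme oxygenase, had 41.6, 64.3 and 52.0 CPM. Among the targets set side by side here, Gclc and Nqo1 were thus above both controls by more than 2-fold and Gclm, Srxn1 and G6pdx by less. Txnrd1, Hmox1 and Prdx1 were not above both. This tally is a selection. It leaves out the glutathione S-transferases, of which Gstm1 and Gsta4 were more than 2-fold above both controls.

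Gstm1, Gsta4 and Nqo1 had the order Stim1 cKO, Stim1 Het, Cre negative from high to low, as did Gclm, Gss, Gstt1 and Mgst1. The summed nasal and olfactory markers, chosen after values were seen, had the same order, as did the summed photoreceptor, lens and neutrophil markers. Single nasal markers could differ, as did Obp1a with 970, 13.6 and 124 CPM in Stim1 cKO, Stim1 Het and Cre negative. How many of all genes tested share the order from Stim1 cKO down to Cre negative was not counted. Gclc did not have this order, since it was lower in Stim1 Het than in the Cre negative library. Detoxifying enzymes are abundant in nasal and olfactory epithelium, and the part of that tissue in the levels of these genes was not tested.

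**Figure D3:**
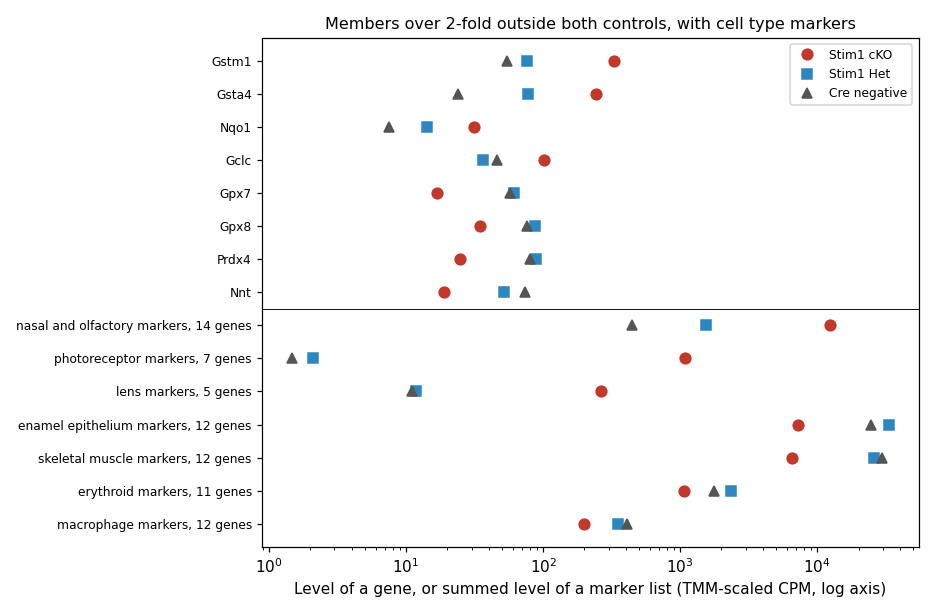
Level in each library (horizontal log axis, TMM-scaled CPM) of the 8 members that were more than 2-fold outside both controls, above the line, and of the summed markers of other cell types and of the enamel epithelium, below the line, with 1 library per genotype and no error bars. Gstm1, Gsta4 and Nqo1 share the order of the libraries with the summed nasal and olfactory, photoreceptor and lens markers. Gpx7, Gpx8, Prdx4 and Nnt are lowest in Stim1 cKO, as are the summed enamel epithelium, skeletal muscle, erythroid and macrophage markers. Of the 12 enamel epithelium markers, 7 were above both controls in Stim1 cKO and 4 below.

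NRF2 binds the antioxidant response element, whose core is TGAC and GC separated by any 3 bases, on either strand. The letters of this core were searched in RefSeq promoters on GRCm38.p6, each running from 250 bases before to 50 bases after a gene's start. Of the 36 members with a promoter in that set, 9 (25%) held the core in at least 1 promoter, beside 3781 of 27025 genes (14%). Targets of NRF2 were among the members by choice. Counted by promoter, the core was in 9 of 49 promoters of members (18.4%) and in 4071 of 32851 promoters of all genes (12.4%). Parts of 5 of these promoters are shown, those of the known targets Gclm, Prdx1, Txnrd1 and G6pdx and of Nfe2l2 itself, 5′ to 3′ on the strand of the gene, with the core or its reverse complement in capitals.
Gclm, chr3:122245403-122245451, plus strand: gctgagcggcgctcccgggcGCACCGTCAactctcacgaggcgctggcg
Prdx1, chr4:116685446-116685494, plus strand: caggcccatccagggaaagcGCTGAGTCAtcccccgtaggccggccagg
Txnrd1, chr10:82859094-82859142, plus strand: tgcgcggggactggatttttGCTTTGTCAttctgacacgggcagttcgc
G6pdx, chrX:74428909-74428957, minus strand: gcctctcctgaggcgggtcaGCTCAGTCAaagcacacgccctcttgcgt
Nfe2l2, chr2:75704875-75704913, minus strand: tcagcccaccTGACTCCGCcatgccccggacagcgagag
The core began 134 bases before the start in Gclm, 133 in Prdx1, 92 in Txnrd1, 57 in G6pdx and 240 in Nfe2l2. In Stim1 cKO, Gclm was 1.25-fold above Stim1 Het and 1.27-fold above Cre negative, G6pdx was 1.70-fold and 1.39-fold above them, and none of these 5 genes was more than 2-fold outside both controls. The core was also present for Mgst1, Sod1, Ucp2 and Srxn1. Of the 8 members more than 2-fold outside both controls, Gstm1, Nqo1, Gpx7, Gpx8 and Prdx4 had a promoter in the set without these letters, and Gclc, Gsta4 and Nnt had no promoter in it. A match is no evidence of binding, and its absence says only that the letters are not in this window.

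Of the genes that supply NADPH, the mitochondrial one was lower and the cytosolic one higher than both controls in Stim1 cKO. Nnt (chr13:119335448-119408997), the transhydrogenase that makes NADPH in mitochondria, had 18.9 CPM in Stim1 cKO, 52.2 CPM in Stim1 Het and 74.0 CPM in the Cre negative library. The controls were 2.76-fold and 3.92-fold above Stim1 cKO, and the log2 fold change was -1.74 ± 0.33 (SE) with an adjusted p of 0.0407 in edgeR. Nnt has 2 entries in the gene annotation that overlap on the same strand, so its count is uncertain where reads could be divided. G6pdx, the first enzyme of the cytosolic pentose phosphate pathway, had 66.2 CPM in Stim1 cKO, 38.8 CPM in Stim1 Het and 47.5 CPM in the Cre negative library, a log2 fold change of 0.62 ± 0.25 (SE, adjusted p = 0.171 in edgeR). Ucp2, a carrier of the inner mitochondrial membrane, had 289, 378 and 360 CPM.

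Grouped after their values were seen, 9 members whose products are known to act mainly or in part in mitochondria (Sod2, Prdx3, Prdx5, Txn2, Txnrd2, Glrx2, Glrx5, Nnt and Ucp2) had a median log2 fold change of -0.79. Of these, 7 were below both controls in Stim1 cKO, where 42.1% of all genes were below, and Prdx5 and Glrx2 were between the controls. The 9 members summed to 726 CPM in Stim1 cKO, 1055 CPM in Stim1 Het and 973 CPM in the Cre negative library. Enzymes with a smaller mitochondrial share, such as Sod1, Gpx1, Gpx4 and Gsr, were not included. Skeletal muscle, rich in mitochondria, had 10 of 12 markers below both controls, and its part in these levels was not tested.

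To see how the same roles stood beyond the 44 genes, a list of 118 symbols of other redox genes was read from the same fit. Some symbols were older and newer names of the same gene, and 108 genes were tested. The list was chosen with earlier results of these data known. It also comes from the same 3 libraries and is no independent check. The median log2 fold change of the 108 was 0.0005, with 45 above both controls, 40 below and 23 between. Those above made 41.7% and those below 37.0%, beside 43.6% and 42.1% of all genes. More than 2-fold outside both controls were 13 higher and 2 lower, 12% and 1.85% of the list, both below the 19.1% and 8.23% of all genes. At an adjusted p under 0.05 and a fold change over 2, edgeR marked 6 of them higher and 2 lower, where 6.8% and 2.88% of all genes were marked, and the same thresholds marked Gstm1 and Gclc higher and Gpx7, Prdx4 and Nnt lower among the 44 members. None of the 108 passed at 0.01.

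Glutathione enzymes and cystine uptake had 19 of 29 genes above both controls (65.5%, against 43.6% of all genes) and 9 by more than 2-fold (31%, against 19.1%). Gsta3, another transferase, had 106 CPM in Stim1 cKO, 8.83 CPM in Stim1 Het and 8.47 CPM in the Cre negative library, with a log2 fold change of 3.62 (adjusted p = 0.0114 in edgeR). Ggt7, a member of the gamma-glutamyltransferase family, had 45.7, 11.3 and 5.09 CPM, a log2 fold change of 2.48 (adjusted p = 0.0441). Slc7a11, the cystine carrier that limits glutathione synthesis, had 23.9, 6.55 and 4.04 CPM, and Gpx2, an epithelial glutathione peroxidase, had 59.0, 14.5 and 12.9 CPM, with log2 fold changes of 2.18 and 2.11 and adjusted p-values of 0.0445 and 0.0180 in edgeR. Gpx2 and Slc7a11 were named after their values were seen. The part of nasal, olfactory and eye tissue in the levels of these glutathione genes was not tested.

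Of the 25 NRF2 regulators and targets, 13 were above both controls (52%, against 43.6% of all genes) and 3 by more than 2-fold (12%, against 19.1%), shares near or under those of all genes. This sub-list holds regulators such as Cul3 and Bach1 beside targets, and glutathione genes such as Slc7a11 and Gpx2 were counted on another sub-list. Its shares therefore do not describe the targets of NRF2 alone. Aldh3a1, an aldehyde dehydrogenase that is abundant in the cornea, had 266 CPM in Stim1 cKO, 11.02 CPM in Stim1 Het and 12.9 CPM in the Cre negative library, the largest fold change of the list (log2 4.48, adjusted p = 0.0110 in edgeR). Photoreceptor and lens markers were likewise far above both controls in Stim1 cKO, and the part of eye tissue in the level of Aldh3a1 was not tested. Among the lower genes, Idh2, which makes NADPH in mitochondria, had 87.4, 340 and 373 CPM in Stim1 cKO, Stim1 Het and Cre negative, a log2 fold change of -2.03 (adjusted p = 0.0311 in edgeR). H6pd, which makes NADPH inside the endoplasmic reticulum, had 23.6, 64.7 and 95.8 CPM, a log2 fold change of -1.76 (adjusted p = 0.0452). Sesn1, a sestrin, had 38.7, 75.1 and 93.4 CPM and a log2 fold change of -1.12 (adjusted p = 0.0704). Of all 14 genes of NADPH supply on this list, 10 were below both controls (71.4%, against 42.1% of all genes) and 4 above (28.6%, against 43.6%). Aldh1l1, among the higher ones, was 3.04-fold above Stim1 Het and 5.4-fold above Cre negative. The sub-list of thioredoxin-fold and repair enzymes had 1 of 22 genes above both controls (4.55%, against 43.6% of all genes) and 14 below (63.6%, against 42.1%). That of NADPH oxidases and other peroxide sources had 8 of 18 above (44.4%), near the share of all genes, and 3 below (16.7%).

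**Figure D4:**
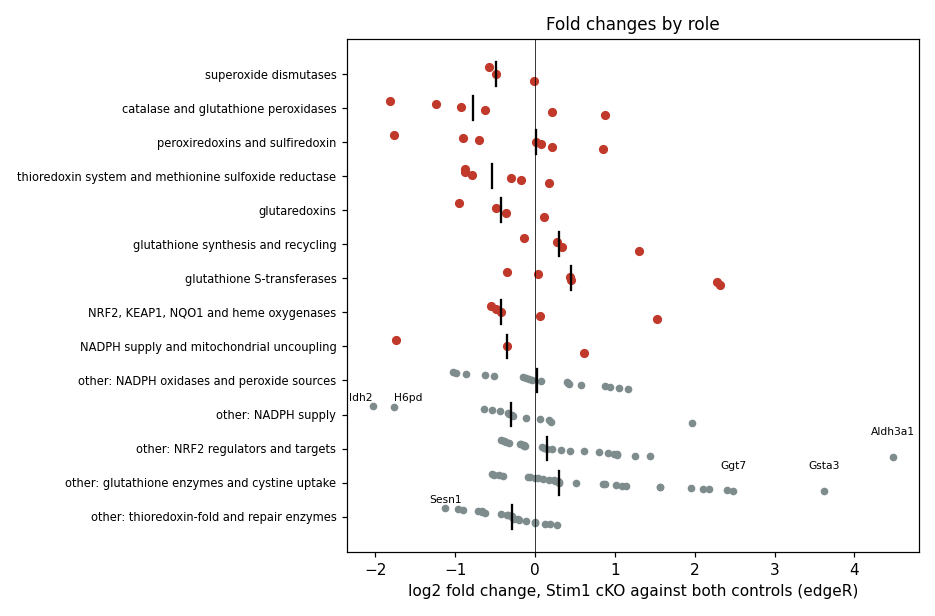
Log2 fold change of Stim1 cKO against both controls from edgeR (horizontal axis) for each of the 44 members by role (red) and for the other redox genes by sub-list (grey), each point a gene and each black bar the median of its group. Medians run from -0.78 for catalase and glutathione peroxidases to 0.45 for glutathione S-transferases among the members.

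The second comparison, of Stim1 Het with Cre negative, asked how far the controls differed from each other, and has no test because each is 1 library. The log2 ratio of Stim1 Het to Cre negative ranged from -0.50 to 1.68 over the members, and 36 of 44 lay within 0.5 of equality. Gsta4 and Gpx4 were more than 2-fold higher in Stim1 Het and 0 members were more than 2-fold lower, which is 4.55% and 0.0% of the members beside 9.82% and 3.64% of all genes. In 28 members the controls differed less from each other than Stim1 cKO differed from either of them. Stim1 Het lay between the other libraries in 16 members, 7 in descending order from Stim1 cKO and 9 in ascending order, the latter including Nnt, Txnip, Cat and Hmox1. The matching shares over all genes were not determined for the counts within 0.5, with closer controls or with Stim1 Het between. Whether these counts are particular to the members is therefore unknown.

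Levels per kilobase of exon placed Gpx3 highest of the members in both the Cre negative library, at 176 CPM per kb, and Stim1 cKO, at 306 CPM per kb. Gstm1 moved from 37.2 CPM per kb in the Cre negative library to 222 in Stim1 cKO, and Gsta4 from 19.0 to 193, levels above those of Txn1 at 154 CPM per kb in Stim1 cKO. Gpx7 and Prdx4, at 44.3 and 38.3 CPM per kb in the Cre negative library, were above Gstm1 there, and at 13.1 and 11.8 CPM per kb were far below it in Stim1 cKO. Exons of 10 members overlap a gene on the other strand, among them Prdx2, Txnip, Gss, Gclm, Keap1 and G6pdx, and their counts are uncertain because it is not known whether strand was used in counting. The same holds for Gpx4, Prdx2, Prdx6 and Txn1, for which the annotation names related copies or pseudogenes elsewhere in the genome.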

How the data were processed

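RNA of the whole incisor enamel organ was sequenced in 3 libraries (Stim1 cKO, Stim1 Het and Cre negative). Per the study's methods, poly-A RNA was enriched, and STAR aligned the trimmed read pairs to the genome of the mouse. The methods name a directional NEBNext kit and the labels a SMARTER kit. The genome build, gene annotation and counting tool are not given in the sources used here. The authors deposited raw counts per gene symbol without normalization. The smallest count is 1, so a gene without reads in any library is not listed. Totals were 21496136 for Stim1 cKO, 20216507 for Stim1 Het and 28265960 for Cre negative. A count of 3, the limit of detection, equals 0.117 to 0.152 CPM, a floor for counting error alone.

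Stim1 cKO was tested against the grouped controls with edgeR 4.0.16 (R 4.3.3): TMM factors, filterByExpr, quasi-likelihood test and Benjamini-Hochberg adjustment over all 18702 genes kept, with calls made beyond 2-fold and below an adjusted p-value of 0.01. The residual degrees of freedom were 1 and the common dispersion 0.106. The test was checked on simulated counts for the direction and size of planted changes only. That check set no condition on false calls and drew the controls as replicates, which the real controls are not. Pairs of libraries were compared as ratios of TMM-scaled CPM, untested. Alternatives were DESeq2 1.42.0, scaling by RLE factors or by library size only, an unfiltered table, a minimum mean of 50 counts, a threshold of 0.05 on the adjusted p, and leaving out each control. The members and lists were chosen with earlier results of these data known. All members are accounted for. Those more than 2-fold outside both controls, those with an unadjusted p under 0.05 and the best known of each role are given with every library's value, as are the 3 largest and 3 smallest fold changes among other redox genes averaging 50 counts or more. Ephx1 also passed the threshold of 0.05. Gene positions and exon lengths came from GENCODE M21 on GRCm38, which matched 20712 symbols and all 44 members, and promoters from RefSeq on GRCm38.p6, with Python 3.11.15 and pandas 2.3.3.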

Additional observations from a re-analysis of the deposited data

How the results depend on the processing

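With 1 library per genotype no result has a replicate check, and the calls depend strongly on the tool, the filter and the threshold. The counts of all genes called were 14 higher and 0 lower. They became 1107 and 880 with DESeq2, 687 and 220 with no filter on low counts, and 1272 and 539 at an adjusted p under 0.05, while the count of higher genes was 50 with RLE factors, 6 with library size only and 6 when a mean of 50 counts was required. Of the members, 0 were called in either direction by edgeR, where 3 were called higher and 4 lower by DESeq2, 1 higher and 2 lower with no filter, and 2 higher and 3 lower at an adjusted p under 0.05. More than 2-fold outside the controls were 4 to 5 members higher and 4 to 6 lower when each control was left out, with no test, and the median of the members ranged from -0.31 to -0.05. Under library size scaling that median was 0.022, on the other side of 0, where the median of all genes was 0.25, and its distance from the median of all genes, -0.22 in the main comparison, was -0.11 when a mean of 50 counts was required. The count of members more than 2-fold apart between Stim1 Het and Cre negative was 1 with RLE factors, 1 with no filter and 3 with library size only, instead of 2. Small fold changes changed sign. These log2 values were Sod1 0.24, Txnrd1 0.086 and Gsr 0.12 with library size only, Sod1 0.095 when a mean of 50 counts was required and Prdx5 -0.026 with no filter. Between leaving out Cre negative and leaving out Stim1 Het, Sod1 ranged from -0.28 to 0.32, Glrx3 from -0.66 to 0.016, Gpx4 from -0.20 to 0.81, Prdx1 from -0.14 to 0.34, Prdx5 from -0.19 to 0.23, Txn1 from -0.0087 to 0.37, Glrx2 from -0.014 to 0.24 and Gstp1 from -0.0069 to 0.081. The 8 members more than 2-fold outside both controls kept their direction under every alternative. No paired analysis was possible because each genotype has 1 library. The cause of these shifts was not tested.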
